A study of Homo sapiens with 3 samples.

Results

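MDA-MB-436, a breast adenocarcinoma line, was set against MCF10A, a line of non-tumorigenic mammary epithelial cells, on exon arrays, with 1 array per line. The data are the 2 mammary arrays of a series of 3. The other is HT-29, a colon adenocarcinoma line given IFN-γ (200 U/ml for 24 h). Its intensities are named here for reference, and they also entered the background level described below. Of 18708 transcript clusters (sets of probes for the exons of a gene), the 17608 that the platform annotation lists with a gene symbol were described: 14733 with a single symbol, which gave 14410 genes, and 2875 with several. Neither mammary culture has a treatment in the labels, but the media differed. MCF10A received hydrocortisone at 500 ng/ml, cholera toxin at 100 ng/ml, EGF at 20 ng/ml and insulin at 10 µg/ml, with horse serum at 5%, whereas MDA-MB-436 was kept without CO2 in L-15 with fetal bovine serum at 10%. Line and medium cannot be told apart in any difference below. Neither line had a replicate, so no test was possible, and the differences are those of these arrays.

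The values are intensities on a linear scale. Olfactory receptor genes, silent in most tissues, served as the gauge of background. Over all 3 arrays, HT-29 included, 95% of the values of 228 of them lay below 29.9, the background used here. The highest was 101. A gene or cluster was counted as higher or lower when its measured log2 difference, MDA-MB-436 minus MCF10A, was at least 2 in size (4-fold) and its brighter array lay above background. Where the dimmer array lay under background, the fold is computed against the background and written as "at least", and a counted gene can then have a bound under 4-fold. In all, 526 genes were higher (3.65% of the 14410) and 290 were lower (2.01%), and of the 10308 genes above background in either array these were 5.1% and 2.81%. Over all 17608 clusters with a symbol 612 were higher (3.48%) and 342 lower (1.94%). The median difference over all genes was 0.018. Of the higher genes 396 were under background in MCF10A, and of the lower genes 136 were under background in MDA-MB-436. Raising values under background to the background left 307 higher and 245 lower.

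**Figure D1:**
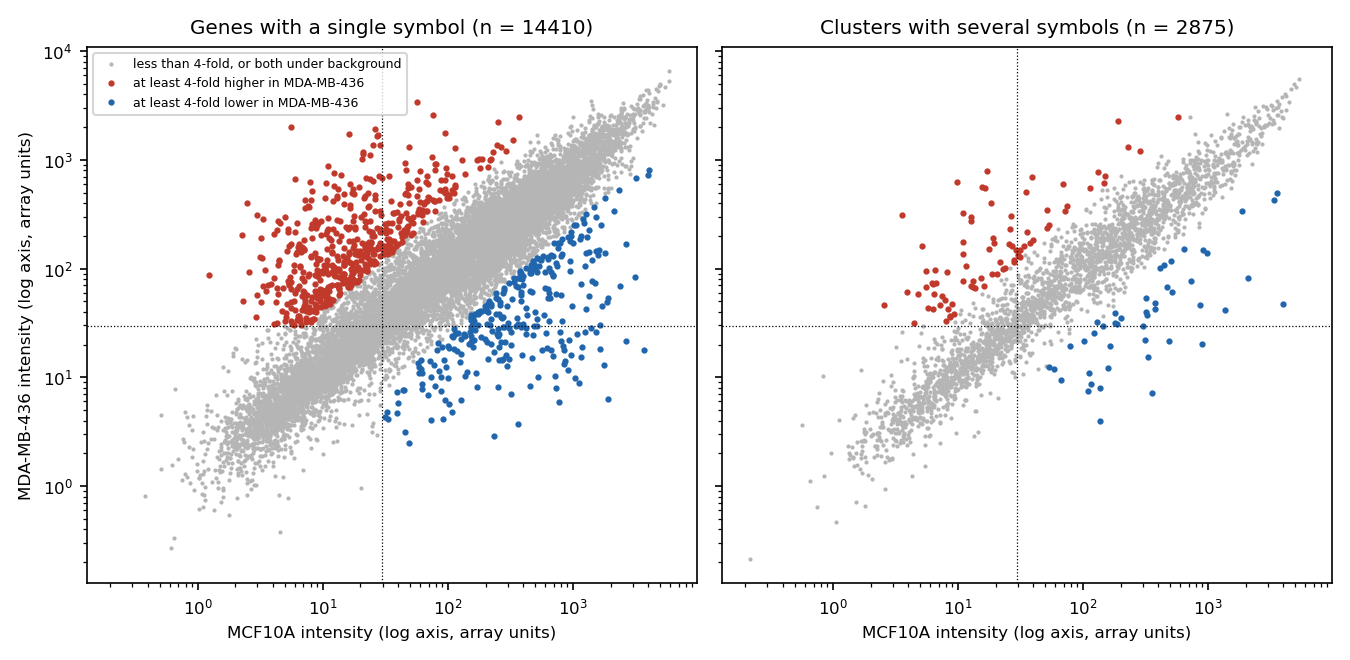
Intensity in MDA-MB-436 (vertical, log axis) against MCF10A (horizontal, log axis) for 14410 genes with a single symbol (left) and 2875 clusters with several symbols (right), 1 array per line; dotted lines mark the background of 29.9, and colours mark features at least 4-fold higher (red) or lower (blue) in MDA-MB-436. The 526 higher genes lie mostly where MCF10A is under background, and the higher and lower clusters on the right number 81 and 46.

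Mammary ducts are lined by luminal and basal epithelial cells, which signal through growth factor receptors, hold their fluid with ion channels and proteases at the apical surface, and sit on a basement membrane. Breast cancer lines of the mesenchymal kind have lost much of this program and make matrix, cytokines and, at times, genes otherwise used in germ cells or neurons. The epithelial markers bore on the labels: KRT18, a simple keratin, was at 1228 in MDA-MB-436 and 2101 in MCF10A, KRT8 at 403 against 558, whereas EPCAM, an epithelial surface protein, was at 34.9 against 359.7. Of 7 measured epithelial markers, 7 were above background in MCF10A and 5 in MDA-MB-436, where CDH1 and KRT14 were not, and their summed intensity was 10682 and 1812. The 4 endothelial markers were under background in both arrays, and among 5 leukocyte markers CD68, a lysosomal protein, was at 1203 against 294 while the pan-leukocyte gene PTPRC was at 4.16 against 3.05, and CD14, a coreceptor for bacterial lipid, was at 86.5 against 156. CD68 and CD14 were the 2 above background in each array. Of 6 fibroblast markers 2 were above background in MDA-MB-436 and 1 in MCF10A, the highest being COL1A1 at 57.2 against 50.9.

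The genes were sorted by symbol into 73 families of at least 8 measured genes each. Keratins, interferon-stimulated genes and junction genes other than connexins were left aside. Of these families 43 had more members higher than lower, 17 more lower than higher, 10 as many of each, and 3 had none past 4-fold. The families held 3877 genes, of which 235 were higher and 113 lower. Over all 14410 genes 526 were higher (3.65%) and 290 lower (2.01%), an imbalance in the same direction. Each family count below is to be read against these shares. With values under background raised to it, 224 of these 348 family members stayed past 4-fold. Some families then changed sides, such as the solute carriers, from 11 higher and 7 lower to 3 and 6.

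**Figure D2:**
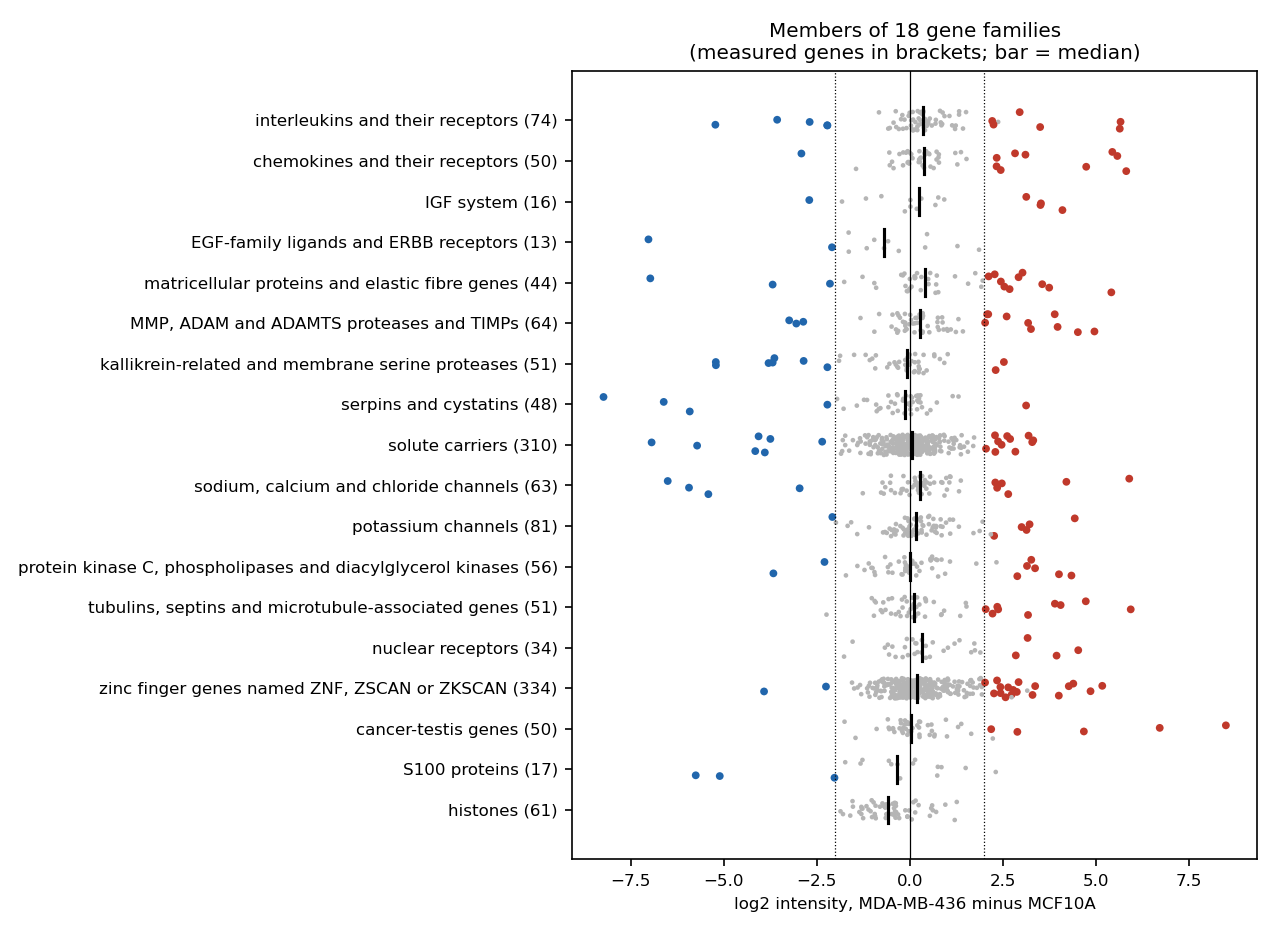
Log2 intensity of MDA-MB-436 minus MCF10A for every measured member of 18 families (1 point per gene, 1 array per line; red and blue points are at least 4-fold higher or lower with the brighter array above background, grey points are the rest, black bars are medians, dotted lines mark 4-fold). Most members of each family lie between the dotted lines, with the microtubule-associated family showing 9 red points and no blue one and the S100 family 3 blue points and no red one.

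Secreted signals differed member by member. Interleukins act on leukocytes and epithelia. Of 74 interleukin and receptor genes 6 were higher (8.11%) and 5 lower (6.76%), against 3.65% and 2.01% over all genes. With the background floor the counts were 4 and 2. IL6, an acute-phase cytokine, was at 378 in MDA-MB-436 and 7.62 in MCF10A, at least 12.7-fold higher, although a dimmer IL6 cluster differed by less than 4-fold, with a log2 difference of 1.83. IL7R, the IL-7 receptor, was at 364 against 7.22 and IL1B, an inflammatory cytokine, at 1277 against 113, 11.3-fold higher. On the other side IL20RB, a chain of the receptors for the IL-20 cytokines of skin, was at 45.7 in MDA-MB-436 and 1708 in MCF10A, 37.4-fold lower. IL20RA, the partner chain, was at 14.4 against 92.8 and IL18, an IL-1-type cytokine that epithelia store, at 105 against 1243. Both chains, IL20RA and IL20RB, were dimmer in MDA-MB-436. IL22RA1, another chain used by these cytokines, was at 26.3 against 29.9, near background in both arrays, so its level cannot be compared.

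Of 50 chemokine and receptor genes, only 17 of which were above background in either array, 9 were higher and 1 lower. These were 18% and 2%, against 3.65% and 2.01% over all genes. CCL2, a monocyte attractant, was at 1172 in MDA-MB-436 and 20.9 in MCF10A, at least 39.2-fold higher, and CCL5, an attractant of T cells, was at 1367 against 28.8. CXCL8, a neutrophil attractant, was at 595 against 69.3, 8.59-fold higher. The lower one was CCL28, a mucosal chemokine, at 11.3 against 85.4. Some complement genes, which no family covered and which were picked for their values, were higher as well. The genes C1R and C1S, for proteases of the first complement component, were at 1909.8 against 26.3 and 1723 against 16.3, and CFI, which cuts complement fragments, was at 126 against 3.13, whereas C3, the central component, was at 1948 against 1861. TNFAIP6, a hyaluronan-binding protein of inflamed tissue, was at 761 against 12.3. Among 38 TNF ligands and receptors 2 were higher and 3 lower, or 1 and 2 with the floor. TNFRSF9, the costimulatory receptor also called 4-1BB, was at 424 against 7.22, whereas TNFRSF10D, a decoy receptor for TRAIL, was at 37.2 against 589 and TRAIL itself, TNFSF10, at 12 against 60.9.

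Growth factor genes were counted by pathway. Of 13 measured EGF-family ligands and ERBB receptors 2 were lower and 0 higher, and their median lay at -0.70 on the log2 scale. EPGN, the ligand epigen, was at 5.95 in MDA-MB-436 and 773 in MCF10A, at least 25.8-fold lower, and TGFA, another EGFR ligand, was at 50 against 213. EGFR itself was at 346 against 772 and EREG, the ligand epiregulin, at 961 against 266, both under 4-fold. Of 25 FGF genes 1 was higher and 2 lower, the ligand FGF5 at 96.5 against 21.4 and the receptor FGFR3 at 72.9 against 306. The other, FGFBP1, which frees FGFs from the matrix, was at least 46.5-fold lower, at 28.3 against 1390.2. All 16 genes of the IGF system were above background in at least 1 array, and 4 were higher and 1 lower. IGFBP2, IGFBP3 and IGFBP5, which bind insulin-like growth factors outside the cell, were at 550.0 against 48, 214 against 24.6 and 88.6 against 7.8. IGF2BP1, an RNA-binding protein of embryonic tissue, was at least 10.2-fold higher. Its relative IGF2BP2 was at 134 against 475, not counted as lower. The lower gene was HTRA1, at 113 against 735. IGF1R and IGFBP7 were nearly level, at 349 against 346 and 413 against 409.

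TGF-beta and bone morphogenetic protein (BMP) genes formed a family of 60, of which 5 were higher and 1 lower. These were 8.33% and 1.67%, against 3.65% and 2.01% over all genes. GREM1 and CHRDL1, secreted BMP antagonists, were at 371 against 7.77 and 207 against 10.6, and the ligands BMP7 and GDF5 at 138 against 11.9 and 96.4 against 8.94. The lower gene was SMAD4, the mediator shared by TGF-beta and BMP receptors, at 134 in MDA-MB-436 and 673 in MCF10A, 5.01-fold lower. ID1 and ID3, which block basic helix-loop-helix factors and are known targets of BMP signals, were at 144 against 1529 and 61.2 against 469, both counted as lower, whereas ID2 was at 99.8 against 66.9. In the WNT family 3 of 48 genes were higher and 2 lower: SFRP1, a secreted WNT antagonist, was at 132 against 1596, and WNT5A and RSPO3, a ligand and an enhancer of WNT signals, were at 146 against 19.7 and 93 against 6.99. The 3 higher WNT genes were all under background in MCF10A, and 1 of them passed 4-fold with the floor.

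Receptors and their second messengers followed. Among 25 receptor tyrosine kinases and partners outside the ERBB family 3 were higher and 1 lower. DDR2, a receptor for fibrillar collagen, was at 1103 in MDA-MB-436 and 23.8 in MCF10A, at least 36.9-fold higher, and GFRA1, a coreceptor for the neurotrophic factor GDNF, at 182 against 11.6. AXL and MET were at 355 against 246 and 629 against 849, within 4-fold. Some 136 G protein-coupled receptors were matched by name (GPR, ADGR and the receptors for lysophosphatidic acid, nucleotides, amines and a few other ligands). Of these 9 were higher (6.62%) and 3 lower (2.21%), against 3.65% and 2.01% over all genes. With the floor the counts were 5 and 1. Receptors for lysophosphatidic acid, a lipid that drives cell motility, went both ways: LPAR1 was at 417 against 12.1 and LPAR3 at 85.4 against 7.59, whereas LPAR6 was at 4.82 against 108. PTAFR, the receptor for platelet-activating factor, and QRFPR, a peptide receptor, were outside the names matched and were lower, at 29.5 against 512 and 14.3 against 269. GNA15, a G protein alpha subunit that couples to phospholipase C, was at least 51.2-fold lower, at 25.9 against 1532. Of 56 protein kinase C, phospholipase and diacylglycerol kinase genes 6 were higher and 2 lower. The phospholipase C genes PLCB1, PLCB4 and PLCE1 were at 94.9 against 9.92, 82.6 against 4.09 and 129 against 8.07, and all 6 higher genes were under background in MCF10A, with 2 past 4-fold after the floor. Of 53 cyclic nucleotide genes 5 were higher (9.43%, against 3.65% over all genes) and 0 lower, or 3 higher with the floor. Among them was PRKAR2B, a regulatory subunit of protein kinase A, at 237 against 8.8.

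Genes of the matrix outside the cell included a large share past 4-fold. Of 44 matricellular and elastic fibre genes 10 were higher and 3 lower, 22.7% and 6.82% against 3.65% and 2.01% over all genes. NID1 and NID2, which link laminin to collagen in basement membranes, were at 445 against 10.5 and 74.5 against 5.58. FBN1, the fibrillin of microfibrils, was at 337 against 28.7 whereas FBN2, its developmental relative, was at 82.7 against 366. MFAP5, another microfibril protein, was at 8.91 in MDA-MB-436 and 1118 in MCF10A, at least 37.4-fold lower, and the fibulin gene EFEMP1 at 140.3 against 1807. Its relative EFEMP2 went the other way, at 256 against 31.4. FN1, fibronectin, and THBS1, thrombospondin 1, were at 563 against 401 and 552 against 1035, within 4-fold. Within the fibrillin, microfibril and fibulin genes the direction thus depended on the member.

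Collagens themselves were mostly level: 2 of 38 were higher and 0 lower, COL6A1 at 309 against 62.1 and COL14A1 at 41.6 against 8.48, only the first with the floor. PCOLCE, which speeds the trimming of procollagen, was 34.4-fold higher, at 2603 against 75.8. Of 27 proteoglycan genes 3 were higher and 0 lower, the cell-surface syndecan SDC2 at 482 against 14.7, the matrix proteoglycan BGN, biglycan, at 1318 against 49.3 and SPOCK1, testican, at 414 against 35. Of 64 MMP, ADAM and TIMP genes 10 were higher (15.6%) and 3 lower (4.69%), against 3.65% and 2.01% over all genes. All 10 were under background in MCF10A, with 4 past 4-fold after the floor. MMP2, a gelatinase, was at 674 in MDA-MB-436 and 29.6 in MCF10A, at least 22.5-fold higher. MMP16, a membrane-bound matrix protease, was at 315 against 21.3 and a second cluster of the gene also passed 4-fold. The inhibitors of these proteases were opposed: TIMP4 was at 537 against 17.3 and TIMP3 at 143 against 1354.

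Serine proteases of the epithelial surface were mostly on the lower side among those past 4-fold. Of 51 kallikrein-related and membrane serine protease genes and their inhibitors 7 were lower and 2 higher. These were 13.7% and 3.92%, against 2.01% and 3.65% over all genes. ST14, the membrane protease matriptase, was at 17.9 in MDA-MB-436 and 663 in MCF10A, at least 22.2-fold lower. PRSS8, prostasin, which acts in one cascade with matriptase, was at 21 against 152. Their inhibitors SPINT1 and SPINT2 were at 39.6 against 493 and 21.7 against 807, so that protease and inhibitor were dim together. In HT-29 these 4 genes were at 1254, 1355, 1297 and 1229. The kallikreins KLK7 and KLK10 were at 11.1 against 142 and 57.6 against 799.9. PLAU, the urokinase that activates plasmin, was higher at 1026 against 179, while PLAT, the tissue-type activator, was lower at 119 against 552. TMPRSS3 was higher like PLAU, at 66.6 against 13.5.

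Clade B serpins are inhibitors of proteases that stay mostly inside the cell. Of 9 measured with a symbol of their own, 5 were above background in either array, 2 were lower and 0 higher. SERPINB13 was at 3.74 in MDA-MB-436 and 366 in MCF10A, at least 12.2-fold lower, and SERPINB5 at 6.31 against 1892. A pair of clusters that list SERPINB3 and SERPINB4 together were at 7.22 against 355 and 3.94 against 136. SERPINB8 was at 293 against 649.8 and SERPINB1 at 149 against 514, within 4-fold, and SERPINB9 was under background in both arrays. The bases upstream of the transcription start are shown for SERPINB5 and SERPINB13, the clade B genes with the largest differences. Both hold the 6-base motif CACCTG or its reverse complement CAGGTG, an E-box variant. The motif and these promoters were chosen after the values were seen. The windows are 250 bases each from RefSeq, build GRCh38.p14, at chr18:63476708-63476957, plus strand and chr18:63587093-63587342, plus strand, with the motif in capitals.
SERPINB5: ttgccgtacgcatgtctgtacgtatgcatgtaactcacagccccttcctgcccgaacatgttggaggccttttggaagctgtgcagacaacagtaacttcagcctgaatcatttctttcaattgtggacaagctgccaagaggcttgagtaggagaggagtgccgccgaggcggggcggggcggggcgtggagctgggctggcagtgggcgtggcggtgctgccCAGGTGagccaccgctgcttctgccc
SERPINB13: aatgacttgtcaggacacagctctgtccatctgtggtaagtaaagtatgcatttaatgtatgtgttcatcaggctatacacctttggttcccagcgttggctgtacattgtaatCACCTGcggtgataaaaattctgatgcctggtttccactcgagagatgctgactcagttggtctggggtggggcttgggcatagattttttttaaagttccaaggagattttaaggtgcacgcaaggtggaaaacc
Over the first listed start of each gene, 16.6% of 11523 measured genes, 25.1% of 207 lower genes and 17% of 407 higher genes held the motif on either strand in this window. The same windows of lower genes had a median of 13 CpG dinucleotides, against 18 over measured genes and 18 in higher genes. A match is a match of letters, and binding was not measured.

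Among ion channels the epithelial sodium channel stood out by size. It carries sodium from the lumen into the cell, and its subunits SCNN1A, SCNN1B and SCNN1G were at 21.9 against 935, 23.6 against 184 and 14.1 against 859.8, all under background in MDA-MB-436. In HT-29 SCNN1B and SCNN1G were under background too, at 20.3 and 12.1, whereas SCNN1A was at 723. CLCA2, a regulator of chloride channels, was at 8.04 against 729.6, and FXYD3, a subunit of the sodium pump, at 49.2 against 1859. These 4 sodium and chloride channel genes (SCNN1A, SCNN1B, SCNN1G and CLCA2) were the lower ones among 63 sodium, calcium and chloride channel genes, and 6 others were higher. The higher ones, such as ANO5, an anoctamin known from muscle, at 191 against 3.22, and CACNA2D1, a calcium channel subunit, at 108 against 5.88, were all under background in MCF10A, and 1 passed 4-fold with the floor. Of 81 potassium channel genes 5 were higher and 1 lower, with the large-conductance channel KCNMA1 at 281 against 13.1 and its subunit KCNMB4 at 231 against 28.9.

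Solute carriers, the largest transport family with 310 measured genes, were close to the background share, with 11 higher (3.55%) and 7 lower (2.26%), or 3 and 6 with the floor. SLC43A3, a purine transporter, had the largest difference, at 21.7 in MDA-MB-436 and 2659 in MCF10A, at least 88.9-fold lower. The amino acid transporters SLC6A14 and SLC6A15 were at 5.69 against 101 and 9.97 against 524, and SLC1A4, which carries alanine and serine, was at 229.5 against 32.2. ABCA12, a lipid exporter of keratinocytes, was at 8.27 against 453, and ABCA1, a cholesterol exporter, at 94.3 against 10.6. MCOLN3, an endolysosomal channel, was at 162 against 5.34.

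**Figure D3:**
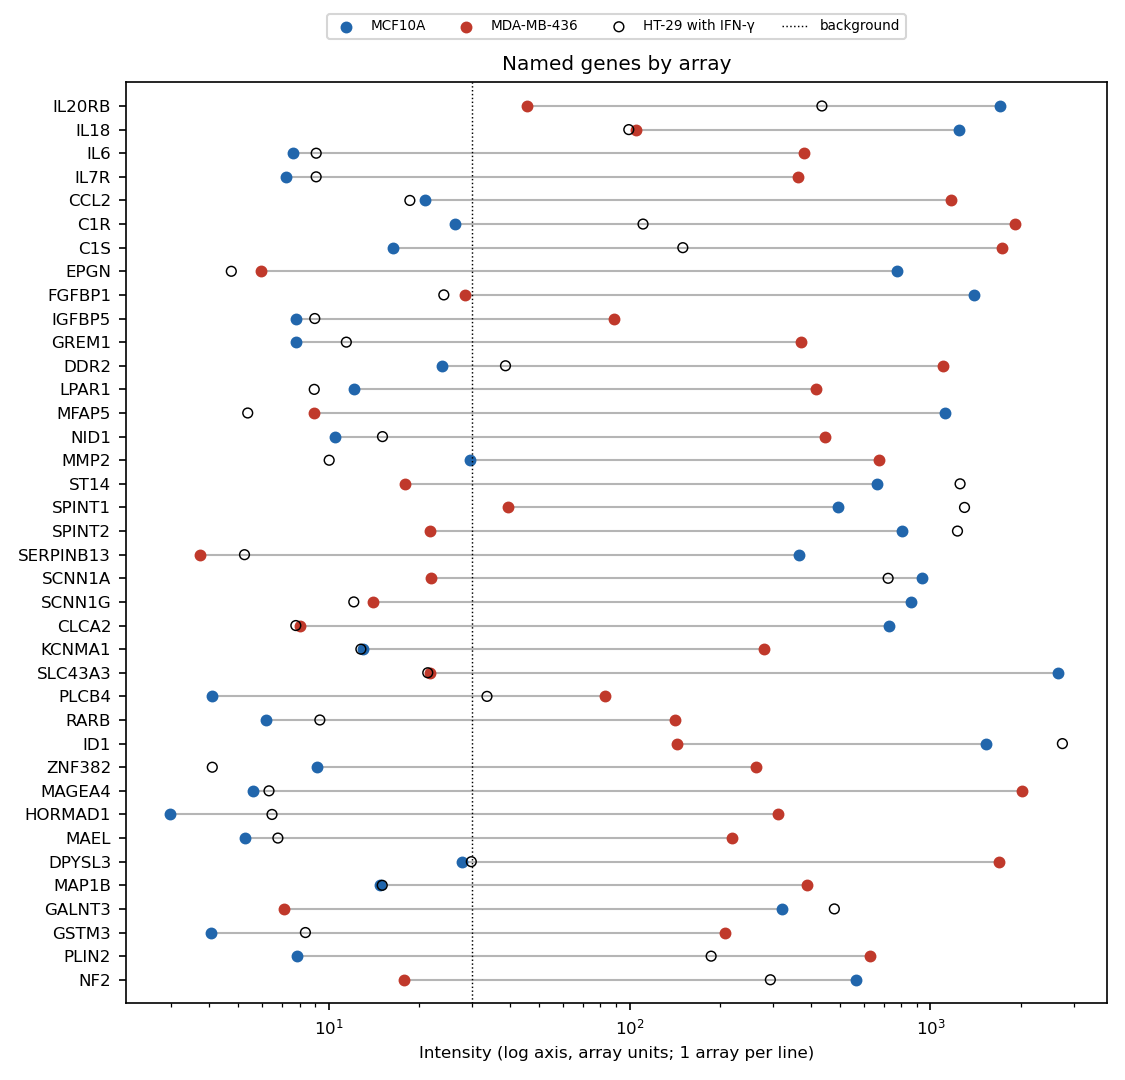
Intensity of 38 named genes (log axis) in MCF10A (blue), MDA-MB-436 (red) and, for reference, HT-29 with IFN-γ (open circles), 1 array per line, with grey bars joining the mammary lines and a dotted line at the background of 29.9. MAGEA4 spans 5.61 to 2009, and SLC43A3 spans 21.7 to 2659 in the opposite direction.

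Transcription factors were counted by family. Of 334 zinc finger genes, many of which encode repressors with a KRAB domain, 18 were higher (5.39%) and 2 lower (0.599%). The shares over all genes were 3.65% and 2.01%. All 18 were under background in MCF10A, and 5 passed 4-fold with the floor. ZNF382 was at 263 in MDA-MB-436 and 9.11 in MCF10A, at least 8.78-fold higher, ZNF280B at 129 against 8.06 and ZFP3 at 92.5 against 2.58. One of the lower pair was ZNF750, an epidermal differentiation factor, at 6.22 against 94, and the other, ZFP36, is an RNA-binding protein, at 52.8 against 252. Among 157 clusters that list a zinc finger gene together with another symbol 9 were higher and 2 lower, such as that of ZNF32 and ZNF32-AS3 at 192 against 19.2. Of 34 nuclear receptors 4 were higher and 0 lower, or 2 with the floor. RARB, a retinoic acid receptor, was at 142 against 6.19, its partner RXRG at 83.2 against 5.43 and RORA, an orphan receptor, at 130.3 against 14.6.

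Homeobox genes outside the HOX clusters, with their EYA partners, included 5 higher and 1 lower of 97, or 2 and 0 with the floor. The 5.15% higher and 1.03% lower compare with 3.65% and 2.01% over all genes. EYA4 and PRRX1, developmental regulators of mesenchyme and sense organs, were at 146 against 5.17 and 199 against 13.9, and IRX4 was lower at 6.89 against 68.8. Of 22 HOX genes 1 was lower, HOXB2 at 9.85 against 101, and 0 higher. Several factors known from epithelia were lower: TFAP2A was at 53.6 against 635, GRHL3 at 20.4 against 220.0, the ETS factor EHF at 27.8 against 251 and KLF5 at 249 against 1686. Relatives of these factors differed from them, since TFAP2C was at 292 against 167 and KLF4 at 297 against 53.1, 5.59-fold higher. RUNX2, a regulator of bone, was at 321 against 46.5. Of 33 forkhead genes 0 were past 4-fold in either direction.

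Cancer-testis genes are normally silent outside the germ line, and 35 of 50 were under background in both lines. Of the 50, 5 were higher and 0 lower, or 3 higher with the floor. These were 10% and 0%, against 3.65% and 2.01% over all genes. All 5 were under background in MCF10A, so only MDA-MB-436 placed them among the other 15. MAGEA4, a tumor antigen, was at 2009 in MDA-MB-436 and 5.61 in MCF10A, at least 67.2-fold higher, and MAGEA10 was at 181 against 7.12. HORMAD1, a protein of meiotic chromosome axes, was at 311 against 2.98, and MAEL, a factor of the piRNA pathway that silences transposons, at 219 against 5.28. These 4 genes were under background in HT-29. Among 65 clusters that list such a gene with other symbols 3 were higher and 1 lower. PRAME, listed with PRAMENP, was at 624 against 9.89, MAGEC2 with MAGEC3 at 57.7 against 4.84, and DDX43, a germ cell helicase, with OOEP at 60.6 against 3.95. The lower cluster lists 5 CTAGE genes, which share the start of the name, at 10.9 against 112.

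Some microtubule genes known from growing neurons were higher. Of 51 tubulin, septin and microtubule-associated genes 9 were higher and 0 lower, 17.6% and 0% against 3.65% and 2.01% over all genes. The 9 were DPYSL3, DPYSL4, DPYSL5, CRMP1, MAP1B, DCLK1, DCLK2, SEPTIN3 and SEPTIN5. This family was defined with earlier results of these data known, so its share is a description and no test. The family median was near level, at 0.098, and 7 of the 9 remained past 4-fold with the floor. DPYSL3, a collapsin response mediator that shapes growth cones, was at 1689 in MDA-MB-436 and 27.7 in MCF10A, at least 56.5-fold higher. Its relatives CRMP1 and DPYSL4 were at 434 against 26.3 and 163 against 31.5, and MAP1B, which stabilises axonal microtubules, at 389.9 against 14.8. The doublecortin-like kinases DCLK1 and DCLK2 were at 156 against 17.3 and 243 against 16.4. Outside this family UCHL1, a neuronal ubiquitin hydrolase, was at 1376 against 25.4, and NEFL, a neurofilament, at 156 against 14.8. Of 67 exocytosis genes 6 were higher and 2 lower, or 2 and 2 with the floor, with the vesicle genes SYT11 and RAB3B at 482 against 17.7 and 259.8 against 4.5. VAMP8, a fusion protein of epithelial secretion, was the reverse, at 53.9 in MDA-MB-436 and 1913 in MCF10A, 35.5-fold lower.

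Small GTPases and guidance genes had scattered members past 4-fold. Of 89 Ras and Rab genes 5 were higher, all under background in MCF10A, and 2 lower. RAB38, which routes cargo to melanosomes and related organelles, was at 19.1 in MDA-MB-436 and 1190.4 in MCF10A, at least 39.8-fold lower, and GEM, a GTPase that holds back calcium channels, at 140.2 against 8.63. Among axon guidance genes NTN1, the secreted cue netrin, was at 217 against 46.3, the plexin PLXNA3 at 269 against 62.8 and the receptor EPHA4 at 152 against 24.7. NRP2, a coreceptor of semaphorins and VEGF, was lower at 38 against 244, and the ephrin EFNB1 at 82.5 against 338. In feedback on MAP kinases DUSP6, a phosphatase of ERK, was at 64.8 against 633, whereas MAP3K8, a kinase upstream of ERK, was at 264 against 33.2. Only 3 of 57 genes of that family passed 4-fold. Motor genes were mostly level, with 2 of 69 higher and 1 lower, MYO1D, a membrane-linked myosin, at 37.3 against 427.

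Membrane proteins of less certain function were measured in number. Of 161 genes named TMEM 10 were higher (6.21%) and 1 lower (0.621%), and 6 of the higher ones passed 4-fold with the floor. Over all genes these shares were 3.65% and 2.01%. TMEM47, a protein of cell junctions, was at 624 in MDA-MB-436 and 66.7 in MCF10A, 9.36-fold higher, and TMEM71 at 136 against 6.1. TMEM40 was at 447 against 103 and TMEM117, the lower one, at 59.4 against 241. Tetraspanins organise other membrane proteins, and of 30 there were 3 higher and 2 lower. TSPAN7 was at 275 against 21.9 and TSPAN15, a partner of the protease ADAM10, at 262 against 52.2, while CD82 was at 261 against 1225 and TSPAN1 at 61.2 against 387. ATP8B2, a lipid flippase, was at 487 against 45.4. GJB5, a connexin of stratified epithelia, was at 26.1 against 321. Of 53 ligand-gated receptor genes 4 were higher and 0 lower, and all 4 encode GABA receptor subunits, with GABRG3 at 77.2 against 5.25. With the floor 1 of the 4 passed 4-fold.

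Of 99 genes matched by name as F-box, SOCS-box or BTB adaptors of ubiquitin ligases 4 were higher and 0 lower, all 4 also with the floor, and that 4.04% is near the 3.65% over all genes. SOCS2 and the KCTD genes lay outside the names matched and included lower ones, SOCS2 at 34.9 against 154 and KCTD14 at 33.1 against 640.1. SOCS1, also outside, was higher at 40.7 against 8.29. FBXL13 was at 125 against 3.25, FBXO27, which binds glycoproteins, at 177 against 24.2, and FBXO32, known as atrogin in wasting muscle, at 276 against 40.4. Of 33 BCL2 family and caspase genes with a symbol of their own 1 was higher and 0 lower, PMAIP1, the BH3 protein NOXA, at 586 against 115. The cluster of CASP1, an inflammatory caspase, and CARD17P was lower, at 39.4 against 179. HSPA4L, a heat shock protein of the HSP110 kind, was lower at 298 against 1534, the 1 of 59. Of 20 annexin and caveolae genes 1 was higher and 2 lower: CAVIN2 and EHD2, which coat and hold caveolae, were at 38.4 against 257 and 54.1 against 659, and ANXA6, an annexin, was at 911 against 79.6.

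Enzyme families were split. Of 82 genes that start or extend sugar chains 5 were higher and 5 lower, or 1 and 3 with the floor. GALNT3, which begins mucin-type chains, was at 7.09 against 320.0, and the sialyltransferases ST6GAL1 and ST3GAL5 went in opposite directions, at 91.6 against 451 and 167 against 22.3. In prostaglandin and leukotriene metabolism 4 of 26 were higher and 2 lower, or 2 and 1 with the floor. PTGS2, the inducible cyclooxygenase, was at 162 against 30.5, and HPGD, which breaks prostaglandins down, at 18.2 against 112, while the lipoxygenases ALOX5 and ALOX15B were at 56.1 against 10.4 and 29.2 against 382. PHGDH, the first enzyme of serine synthesis, was at 2451 in MDA-MB-436 and 368 in MCF10A, 6.66-fold higher. NNMT, which methylates nicotinamide, was at 147 against 1606, and KYNU, of tryptophan breakdown, at 130.2 against 807, the lower pair among 24 amino acid enzymes. PLIN2, the coat of lipid droplets, was at 628 against 7.86 and the fatty acid elongase ELOVL2 at 202 against 9.71. Among oxidoreductases CYP1B1, which oxidises estrogens, was at 703 against 109 and ALDH1A3, which makes retinoic acid, at 1192 against 229, whereas CYP27B1, which activates vitamin D, was at 34.6 against 221 and AKR1C3, a steroid reductase, at 45.4 against 299. CA2, carbonic anhydrase, was at least 26.5-fold lower, at 26.3 against 792. Of 40 glutathione, peroxidase and metallothionein genes 4 were higher and 1 lower, including GSTM3 at 208 against 4.06 and heme oxygenase HMOX1 at 223 against 23.3. A pair of clusters for GSTT2 and GSTT2B, glutathione transferases, were the other way, at 60.2 against 513 and 67.4 against 466.

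Calcium-binding and phosphatase families had more members lower than higher. Of 17 S100 genes 3 were lower (17.6%, against 2.01% over all genes) and 0 higher, and the median lay at -0.33. S100A14 was at 30.3 in MDA-MB-436 and 1633 in MCF10A, 53.9-fold lower, and S100A2 at 68.6 against 2364, with a second S100A2 cluster also past 4-fold. Of 28 tyrosine phosphatases 4 were lower (14.3%) and 1 higher (3.57%), against 2.01% and 3.65% over all genes. PTPRZ1, a receptor for pleiotrophin and midkine, was at 8.1 against 254, PTPN13 at 59.5 against 646 and PTPRD at 72.6 against 5.4. MDK, the growth factor midkine, was itself higher at 1668 against 27.1. CCNA1, a cyclin of germ cells, was lower, at 42.8 against 1281, 29.9-fold lower. Histones and heparan sulfate enzymes had 0 of 61 and 0 of 44 members past 4-fold. The median log2 difference of the histones was -0.60, and it was -0.45 after quantile normalization. With all genes cut into 5 equal groups by mean level, the brightest group had a median of -0.25 and the dimmest 0.21.

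Genes outside these families also had large measured log2 differences, although some of these differences rest on values far under background. LRRN1, a leucine-rich neuronal membrane protein, was at 397 in MDA-MB-436 and 2.47 in MCF10A, at least 13.3-fold higher. PLBD1, a phospholipase B-like protein, was at 670.2 against 5.95, and CH25H, which makes 25-hydroxycholesterol, at 296 against 5.03. OLR1, a receptor for oxidised lipoprotein, was at 611 against 10.6 and the surface peptidase DPP4 at 274 against 4.4, with 807 in HT-29. On the lower side MPZL2, an epithelial immunoglobulin-type membrane protein, was at 13 in MDA-MB-436 and 1782 in MCF10A, at least 59.6-fold lower. TNS4, a tensin of focal adhesions, was at 18.1 against 1643, and VSNL1, a neuronal calcium sensor, at 11.7 against 909. NF2, the tumor suppressor merlin, was at 17.8 in MDA-MB-436 and 565 in MCF10A, at least 18.9-fold lower. KCTD9, a BTB-domain protein, was at 13.2 against 854. Both were above background in HT-29, at 294 and 234.

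Clusters annotated with several symbols hold signal that the annotation alone does not give to a single gene. Of 2875 such clusters 1968 were above background in either array, 81 were higher (2.82%) and 46 lower (1.6%), against 3.65% and 2.01% of single-symbol genes. In 58 of the higher ones MCF10A was under background, and 43 were past 4-fold with the floor. In 1245 clusters all symbols share at least their first 3 letters, as paralogs and pseudogenes mostly do, and 38 of these were higher and 24 lower. In the other 1630, 43 were higher and 22 lower, and 1211 of these 1630 list genes within 10 places of each other in the RefSeq order, which are mostly overlapping or adjacent genes. Another 251 list unlike names from different chromosomes, such as the cluster of HSPB8, a small heat shock protein, and PDAP1, at 398 against 18.3. PDAP1 measured alone was at 310 against 414. Of the 127 clusters past 4-fold, 42 list a symbol that was also measured alone. In 6 of them a gene alone passed 4-fold in the same direction, and in 0 in the opposite one.

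The lower clusters were led by genes of squamous epithelium. The cluster of KRT5 and KRT7, keratins, was at 46.7 in MDA-MB-436 and 3952 in MCF10A, 84.5-fold lower, and KRT7 measured alone was at 82.7 against 3161. Small proline-rich proteins are crosslinked into the cornified envelope, and a pair of SPRR1A and SPRR1B clusters were at 41.4 against 1378 and 20.3 against 899.7. One of 3 clusters listing the same 5 SPRR2 genes was at 15.4 against 332, and the others differed by less than 4-fold. FKBP5, a chaperone of steroid receptors that glucocorticoids induce, with LOC285847, was at 82.6 in MDA-MB-436 and 2076 in MCF10A, 25.1-fold lower, and at 350.1 in HT-29. Hydrocortisone was in the MCF10A medium alone, and its part in this was not tested. CKMT1A and CKMT1B, near-identical mitochondrial creatine kinases, were at 489.9 against 3536 and 427 against 3354.

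Higher clusters were more mixed. AFAP1-AS1, a long noncoding RNA antisense to AFAP1, was listed with it at 311 in MDA-MB-436 and 3.59 in MCF10A, at least 10.4-fold higher. AFAP1 measured alone was at 654 against 210.4, a log2 difference of 1.64, and its second cluster gave 0.89. PLTP, the phospholipid transfer protein, with its neighbour CTSA was at 781 against 17, while CTSA measured alone was at 2485 against 1599. BHMT2 with BHMT, betaine methyltransferases, was at 561 against 15.4. BEX1 with BEX2 was at 161 against 5.16, though the second BEX cluster had a log2 difference of 1.86. SLC2A3, the glucose transporter GLUT3, with SLC2A14 was at 700.2 against 38.9 and 303 against 26.5 on a pair of clusters. BCAT1, which breaks down branched-chain amino acids, with DAD1P1 was at 272 against 12.7. MTAP, an enzyme of methionine salvage, with CDKN2B-AS1 was at 176 in MDA-MB-436 and 10.9 in MCF10A and at 333 in HT-29. Its neighbours CDKN2A and CDKN2B, inhibitors of cyclin-dependent kinases, were at 371 against 23 and 87.4 against 30.1, so the 3 were dimmer in MCF10A than in either other line. A pair of clusters listing protocadherin beta genes, of 6 such clusters, were also higher, that of PCDHB2 and PCDHB3 at 172 against 37.6.

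**Figure D4:**
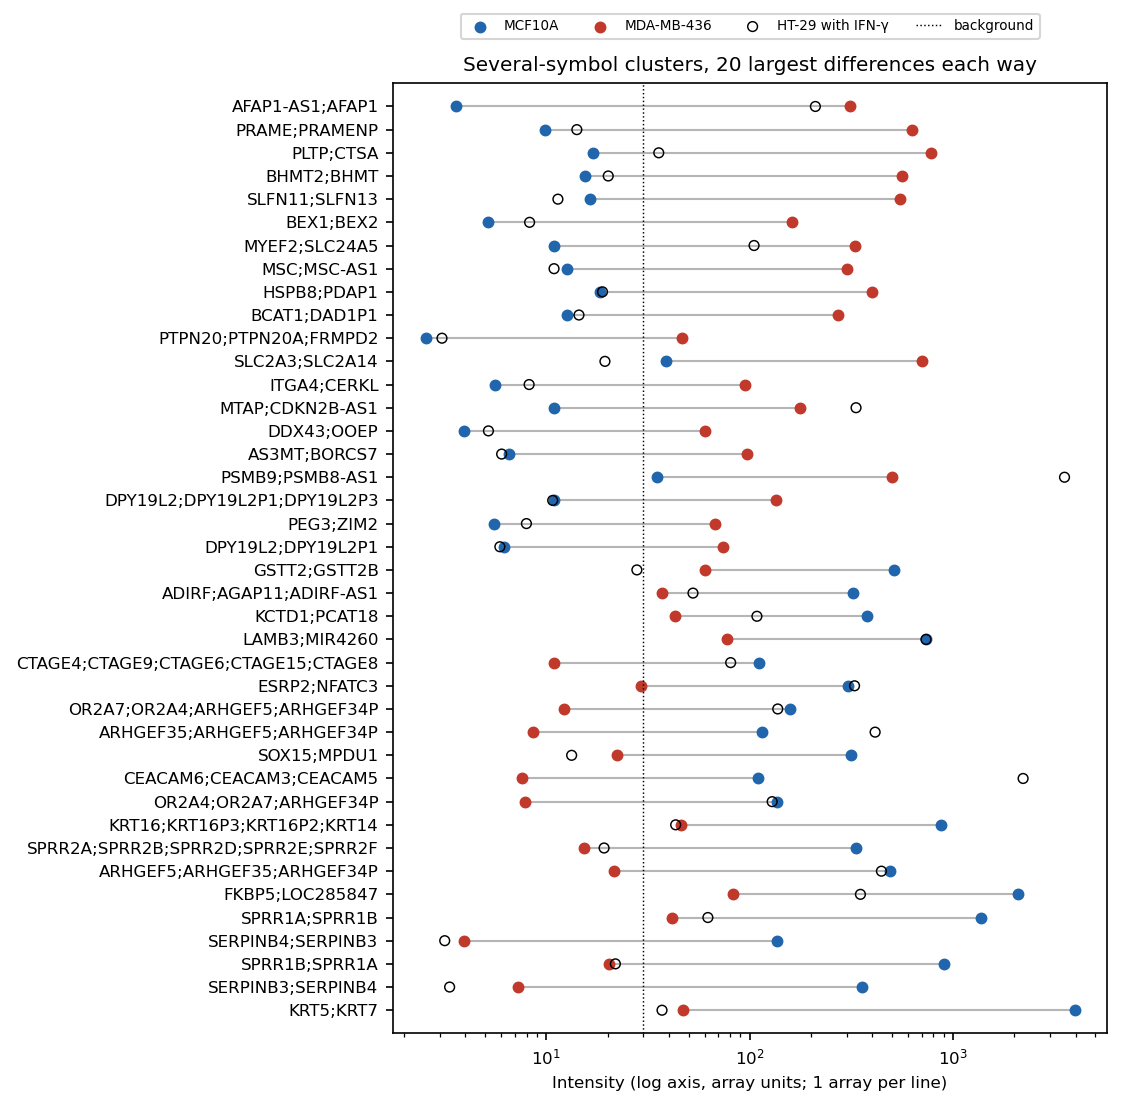
Intensity (log axis) of the 20 several-symbol clusters with the largest differences in each direction, in MCF10A (blue), MDA-MB-436 (red) and HT-29 with IFN-γ (open circles), 1 array per line, with all symbols of each cluster and a dotted line at the background of 29.9. The KRT5 and KRT7 cluster at the bottom runs from 46.7 to 3952, and the AFAP1-AS1 and AFAP1 cluster at the top from 3.59 to 311.

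Some of these clusters list a microRNA with its host or neighbour. MicroRNAs are cut from longer transcripts and pair with messages through their seed, so their sequences are shown with bases 2 to 8 in capitals (RefSeq, GRCh38.p14). Only the transcript cluster was measured, not the mature microRNA.
hsa-miR-218-5p: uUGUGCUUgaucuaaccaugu
hsa-miR-153-3p: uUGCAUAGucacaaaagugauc
hsa-miR-147b-3p: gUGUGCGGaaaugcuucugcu
hsa-miR-4260: cUUGGGGCauggaguccca
The seeds all differ. The cluster of SLIT2, a secreted guidance cue, and MIR218-1 was at 345 in MDA-MB-436 and 51.8 in MCF10A, 6.65-fold higher. That of PTPRN, a protein of secretory granules, and MIR153-1 was at 102 against 23.7, and that of COXFA4L3 and MIR147B at 76.8 against 13.1. The cluster of LAMB3, a laminin chain of epithelial basement membranes, and MIR4260 was lower, at 77.2 against 733, 9.5-fold lower.

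Clusters that list the same symbols give the only internal gauge of how far repeat clusters part. Where a set lists different genes, such as GPR39 and LYPD1, each cluster may read a different one. Clusters of a single gene are the nearer repeats. For 187 sets of symbols listed on more than 1 cluster above background, the median range of the log2 difference within a set was 0.33. It was 0.22 for 205 single genes with more than 1 such cluster. Of 19 sets with any cluster past 4-fold, 9 had all clusters past it in the same direction and 1 had clusters past it in both. That one lists SLFN11 and SLFN13, genes of the Schlafen family that restrict tRNA and replication under stress. One cluster was at 550.4 in MDA-MB-436 and 16.5 in MCF10A, at least 18.4-fold higher, and the other at 31.6 in MDA-MB-436 and 181 in MCF10A, 5.72-fold lower, so a single statement for the pair is not possible. GPR39 and LYPD1, overlapping genes, gave log2 differences of 3.15 and -1.02 on 2 clusters. CSAG2 and CSAG3 gave 2.72 and -0.36, and IFITM2 and IFITM3 gave -2.46 and -0.0076. Of 12 single genes with any of several clusters past 4-fold, 5 had all of them past it in the same direction and 0 in both directions.

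**Figure D5:**
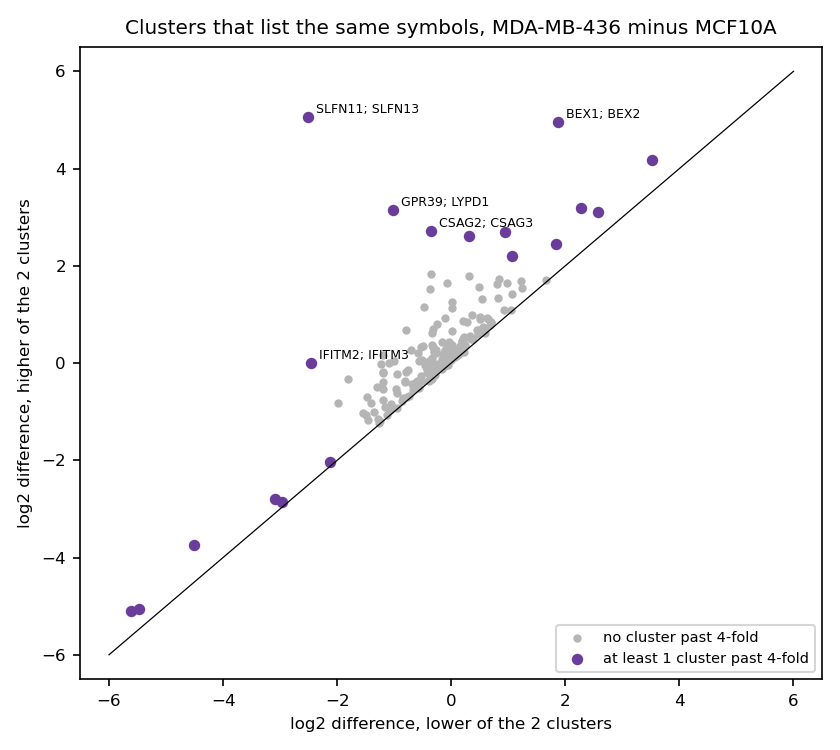
Log2 difference, MDA-MB-436 minus MCF10A, of the lower (horizontal) and the higher (vertical) of 2 clusters that list the same symbols, for the sets on exactly 2 clusters above background; purple points have at least 1 cluster past 4-fold and the line marks equal values. Most points lie near the line, and the SLFN11 and SLFN13 set lies farthest from it, at -2.52 and 5.06.

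Neighbouring genes shared a direction in some places. With 10299 genes above background in either array placed in the RefSeq order (GRCh38.p14), 8 runs of 3 or more consecutive genes were higher and 3 were lower. Consecutive means among the placed genes only, and the runs spanned 4 to 44 genes of the annotation. Some higher runs held interferon-stimulated genes, such as IFIT1, IFIT2 and IFIT3, or RSAD2. Whether the number of runs exceeds that of genes in random order was not tested. The ARMCX genes, X-linked armadillo repeat proteins some of which sit on mitochondria, formed one: ARMCX1, ARMCX6 and ARMCX3 were at 441 against 21.3, 449.7 against 13 and 292 against 11. ARMCX5 was nearly level, at 96.7 against 71.7, and ARMCX2 and ARMCX4 were under background in both arrays. A run of 4 on the same chromosome alternated cancer-testis genes with GABA receptor subunits: MAGEA4, GABRE, MAGEA10 and GABRQ, the receptor genes at 335 against 79.5 and 92.3 against 11.8. L1CAM, a neural cell surface protein, ARHGAP4 and RENBP were at 473 against 47.8, 189 against 32.4 and 79.8 against 14.2. P2RX7 and P2RX4, ATP-gated channels, followed OASL, at 56.9 against 9.05 and 137 against 30.5. The lower runs included desmosomal cadherins and TNS4 with keratins.

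The 250 bases upstream of ARMCX1 and ARMCX6 are shown because these genes differed together on the X chromosome, in capitals where CpG dinucleotides lie (RefSeq, GRCh38.p14, chrX:101550297-101550546, plus strand, and chrX:101618001-101618250, minus strand).
ARMCX1: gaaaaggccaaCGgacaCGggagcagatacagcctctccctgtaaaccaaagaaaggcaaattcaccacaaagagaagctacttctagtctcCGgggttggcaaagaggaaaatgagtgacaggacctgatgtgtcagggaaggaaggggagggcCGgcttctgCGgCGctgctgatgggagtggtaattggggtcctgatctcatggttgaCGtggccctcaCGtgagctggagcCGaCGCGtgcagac
ARMCX6: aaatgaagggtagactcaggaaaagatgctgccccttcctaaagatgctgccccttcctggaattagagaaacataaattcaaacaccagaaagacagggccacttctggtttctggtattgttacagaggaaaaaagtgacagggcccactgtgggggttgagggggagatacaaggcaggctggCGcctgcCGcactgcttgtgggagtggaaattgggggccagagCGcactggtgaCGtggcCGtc
They hold 11 and 5 CpG dinucleotides, under the median of 18 over measured genes. At most 5 were held by 20.7% of measured genes, 20.4% of higher genes and 32.9% of lower genes. Methylation was not measured.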

How the data were processed

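RNA of each line was hybridised to an exon array, per the labels. The authors deposited one intensity (linear scale) for each of 18708 transcript clusters. The summary method, background correction and normalization are not given in the sources used here, and hg19 is listed in the submitters' processing notes. Column medians were 81 in MDA-MB-436, 75.1 in MCF10A and 75.9 in HT-29.

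Symbols came from the platform annotation and were updated through gene identifiers to RefSeq (GRCh38.p14), 14705 of 14733 single-symbol clusters by identifier; 1100 clusters are unnamed here. Where a gene had more than 1 cluster (323 extra), the brightest by the mean of the 3 arrays stood for it. Intensities were log2 transformed and subtracted, with no test. Over olfactory receptor genes the differences had an SD of 0.78. The number of arrays limits the precision.

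The families, defined by patterns in the symbols, and the rule for named genes (up to 4 per family and direction, the 20 largest differences each way, several-symbol clusters alike, KRT5, MTAP and runs of neighbours) were chosen with earlier results of these data known. Genes named beyond that rule were chosen after their values were seen, as were the motif and the promoters. Promoter windows were searched on both strands. Alternatives were quantile normalization, median centring, 3 treatments of background, folds of 2 and 8, and a median where a gene had several clusters. Both scalings used all 3 arrays. Some results are not reported here. The counting step was tested on simulated data. Scripts ran on pandas 2.3.3 with numpy 2.4.6 (Python 3.11.15), and plots on matplotlib 3.10.9.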

Additional observations from a re-analysis of the deposited data

How the results depend on the processing

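Raising values under background to the background moved the counts most among settings at 4-fold: 307 in place of 526 genes were higher, 43 in place of 81 several-symbol clusters were higher, and 224 in place of 348 family members were past 4-fold. Lower genes numbered 245 and lower clusters 38 under it. A fold of 2 gave 1262 genes higher and 1259 lower, 218 clusters higher and 189 lower, and 834 family members, and a fold of 8 gave, in the same order, 241, 132, 33, 22 and 166. Higher calls were 64.5% of gene calls and 50.1% at a fold of 2. Quantile normalization, median centring, no filter, the stricter background and the median over clusters kept each of these counts within 1.5 times. Median centring moved the median of all genes to -0.091. Of 359 named genes and clusters 342 were called alike after quantile normalization, 352 after centring and 265 with the floor. None changed direction under the scalings, the floor or the median over clusters. They were picked for large differences in these arrays, and a floor cannot reverse a direction, so the unchanged directions are no test. No paired analysis was possible because each line had 1 array. Without replicates, leaving out an array leaves no comparison, and signal near background limits all folds against dim arrays.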

Other observations

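Of the 1100 transcript clusters without a symbol, 628 were above background in either mammary array, 22 were higher and 30 lower by the same 4-fold rule, 4.73% in all. Lower clusters were the more numerous here, whereas among single-symbol genes higher ones were. Of the 526 higher genes 287 were under background in HT-29 with IFN-γ, and of the 290 lower genes 86 were.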
